A study of Homo sapiens with 6 samples.

Results

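Heme breakdown and iron storage were followed through 9 genes: the heme oxygenases HMOX1 and HMOX2, the biliverdin reductases BLVRA and BLVRB, the ferritin subunits FTH1 and FTL, the transferrin receptor TFRC, the iron regulatory protein gene IREB2 and the ferritin cargo receptor NCOA4. They were chosen by name and looked up by symbol and Ensembl identifier in the only file analysed here, the authors' deposited table of genes past an adjusted p of 0.05 and a fold of 1.5. Of the 9 genes, 6 stood in that table of 7150 genes, and its adjusted p-values imply about 14255 genes tested. The cells were MDA-MB-231, an established human triple-negative breast cancer line of mesenchymal shape, labelled as wild type in every sample. The 3 control libraries are labelled as having no treatment, and the 3 treated libraries came from cells given 0.5 µM shikonin, a plant naphthoquinone, for 24 h. The labels write the dose unit with a lower-case m, which is read here as micromolar. No vehicle is named. The labels do not tell whether a group's libraries are separate cultures, and p-values then reflect only how these samples varied, perhaps for technical reasons. The authors' deposited table has 0 columns of per-sample values, so no value per library, and no library depth, can be given. Its sign is read as shikonin over control, since positive values carry the authors' mark "up".

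Heme oxygenase opens the heme ring and releases iron, carbon monoxide and biliverdin, which biliverdin reductase turns into bilirubin. The freed iron can be stored in ferritin, a shell built of heavy and light subunits, and is released again when NCOA4 carries ferritin to the lysosome. Iron regulatory proteins bind a hairpin, the iron responsive element, in messages of iron genes: they hold back translation of ferritin and protect the TFRC message. Transcription of HMOX1 and of the ferritin genes is induced by the factor NRF2 and held down by its competitor BACH1.

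Messages for heme oxygenase 1, both biliverdin reductases and both ferritin subunits rose with shikonin, while that for the iron regulatory protein fell. HMOX1, BLVRB, BLVRA, FTL and FTH1 were listed as higher and IREB2 as lower in the authors' deposited table, all by the authors' DESeq2 Wald test. HMOX2, TFRC and NCOA4 were not listed, which means that they missed one of the thresholds or were not tested. No value is held for them. In bulk RNA, a change in every cell and a change in the share of cells that express a gene cannot be told apart. Of all genes tested, 50.2% were listed, 25.5% as higher and 24.7% as lower, so being listed was common, and 6 of 9 is read against that share. That share covers tested genes only, while shares of named groups here and below count every gene named, tested or not. The median log2 fold change of the 6 listed members was 1.42, against 0.60 over all listed genes of the authors' deposited table. That overall median is not a typical fold. Every listed gene passes 1.5-fold in one direction, and higher and lower genes are near equal in number, so it lies close to the threshold. The standard errors of the 6 had a median of 0.18 on the log2 scale.

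**Figure D1:**
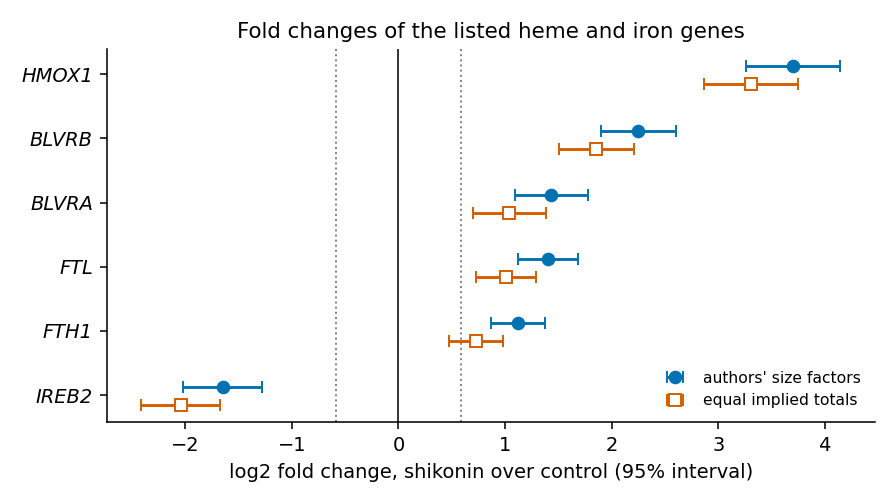
Log2 fold change of the 6 listed genes (x axis, shikonin over control) with 95% intervals from the authors' standard errors. Filled circles use the authors' size factors and open squares equal implied totals, the dotted lines mark a 1.5-fold difference, and the 5 higher genes and IREB2 keep their sides under both scalings.

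HMOX1, the stress-inducible heme oxygenase, had the largest change of the 6 listed members. Its implied mean went from 328 normalized counts in control to 4273 in shikonin. Implied means such as these follow from the overall mean and the fold change in the authors' deposited table, taking both groups to weigh the same. The log2 fold change of HMOX1 in the authors' deposited table was 3.70 ± 0.22 (standard error), a 13-fold difference (95% interval 9.59 to 17.7; adjusted p = 2.35e-58, DESeq2). By its Wald score HMOX1 ranked 32 among the 3630 higher genes of the authors' deposited table, and by fold it ranked 236. HMOX2, the constitutive heme oxygenase with the same reaction, was not listed, so the change in heme oxygenase message that these data show is that of HMOX1. HMOX1 lies on chromosome 22 from 35380361 to 35394214 and has 5 exons, and HMOX2 lies on chromosome 16 from 4474690 to 4510347 (GRCh38, GENCODE 29). HMOX2 overlaps NMRAL1, a gene of the opposite strand that was 2.11-fold higher (1.65 to 2.70) per the authors' deposited table.

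Both biliverdin reductases rose, BLVRB by more than BLVRA. BLVRB, which also works as a flavin reductase, had implied means of 523 normalized counts in control and 2489 in shikonin. Its log2 fold change in the authors' deposited table was 2.25 ± 0.18, or 4.76-fold (3.72 to 6.09; adjusted p = 1.22e-33, DESeq2). BLVRA, the main biliverdin IX alpha reductase of adult tissue, had implied means of 585 and 1581 normalized counts. Its log2 fold change in the authors' deposited table was 1.44 ± 0.17, or 2.70-fold (2.13 to 3.43; adjusted p = 1.95e-15, DESeq2). The log2 fold change of BLVRB was larger by 0.82 (95% interval 0.32 to 1.31). This interval, like the others between genes below, takes the estimates as independent, which genes of the same libraries are not. Per kilobase of transcript, the implied control means of BLVRA and BLVRB were close, 504 and 557, while in shikonin BLVRB stood at 2654 and BLVRA at 1361. BLVRB lies on chromosome 19 from 40447765 to 40465840 (4 exons) and BLVRA on chromosome 7 from 43758680 to 43807342 (9 exons).

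Both ferritin messages rose, from levels that were already high in control cells. FTL, the light subunit that helps form the mineral core, had implied means of 39030 normalized counts in control and 103189 in shikonin. Its log2 fold change in the authors' deposited table was 1.40 ± 0.14, or 2.64-fold (2.18 to 3.21; adjusted p = 1.02e-21, DESeq2). FTH1, the heavy subunit that carries the ferroxidase site, had implied means of 28212 and 61486 normalized counts. Its log2 fold change in the authors' deposited table was 1.12 ± 0.13, or 2.18-fold (1.83 to 2.60; adjusted p = 4.91e-17, DESeq2). The pair together made up 0.669% of the implied total of all listed genes in control and 1.25% in shikonin. Although their folds were smaller than that of HMOX1, the gain in message was larger: per kilobase of transcript, FTL gained 73075 implied normalized counts and FTH1 gained 27075, against 2165 for HMOX1.

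The light subunit stayed the more abundant ferritin message per kilobase in both groups. The ratio of FTL to FTH1 per kilobase of transcript was 1.94 in control and 2.35 in shikonin. The difference in log2 fold change between FTL and FTH1 was 0.28, with a 95% interval of -0.10 to 0.66 that includes 0. Both genes have processed copies in the genome, 25 named for FTH1 and 16 for FTL in GENCODE 29, and 0 of these were listed, so the handling of reads shared with them is unknown and both values carry that uncertainty. FTH1 also overlaps BEST1 on the opposite strand. BEST1 was 3.54-fold higher (1.96 to 6.42) according to the authors' deposited table, with a mean of 44.5 normalized counts against 44849 for FTH1. FTL lies on chromosome 19 from 48965301 to 48966878 and FTH1 on chromosome 11 from 61959718 to 61967660, each with 4 exons.

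**Figure D2:**
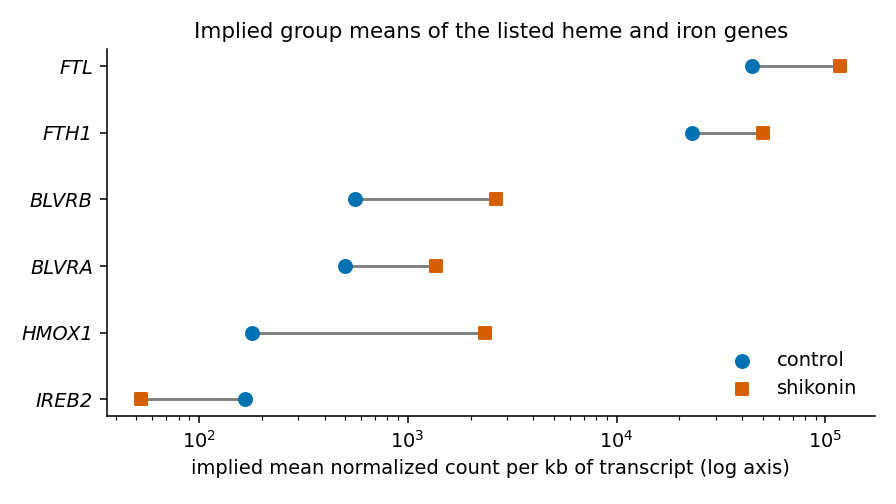
Implied group means per kilobase of mature transcript (x axis, log scale) for the 6 listed genes, circles for control and squares for shikonin, with no error since the file holds no per-sample values. FTL (44453 to 117528) and FTH1 (22955 to 50030) sit well above the others, HMOX1 moves the farthest, from 180 to 2345, and IREB2 is the only one of the 6 to move down.

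The hairpin bound by iron regulatory proteins can be read in the FTL message. The 50 bases after each gene's start in the RefSeq promoter table (GRCh38.p14) were searched on the sense strand for a bulged C, 5 bases, the loop CAGTGN with any last base but G, and 5 bases that pair with the first (G with T allowed). Of 35116 windows, 6 held it (0.0171%), those of CTBP1, LOC105376212, F10, FTL, CCDC116 and ALAS2. FTH1 and HMOX1 have no window in that table and were not searched, so FTL is not shown to differ from FTH1, another textbook carrier of the element. The loop letters alone stood in 4.4% of windows. FTL and ALAS2, the erythroid heme synthesis gene, are textbook carriers of this element, and the matches are shown to let their shared loop, in capitals, be compared.
FTL: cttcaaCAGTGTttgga
ALAS2: cgtcctCAGTGCagggc
The FTL match lies at chr19:48965341-48965357 on the plus strand, from base 33 to base 49 of the message. The ALAS2 match lies at chrX:55030947-55030963 on the minus strand, and ALAS2 was not listed in the authors' deposited table. A match is a description of letters, and RNA levels do not show how much protein is made from a message that carries it.

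IREB2, which encodes the iron regulatory protein IRP2, was the member that fell. Its implied means were 1059 normalized counts in control and 338 in shikonin. The log2 fold change of IREB2 in the authors' deposited table was -1.65 ± 0.19, which is 3.14-fold lower (2.43 to 4.05; adjusted p = 2.2e-17, DESeq2). By its Wald score IREB2 ranked 556 among the 3520 lower genes. It lies on chromosome 15 from 78437431 to 78501456, with 22 exons, and shares 1764 bases of its span with an unlisted antisense gene. TFRC (chromosome 3, 196027183 to 196082189, 19 exons), whose message IRP2 is known to protect, and NCOA4 (chromosome 10, 46005088 to 46030714, 12 exons) were not listed.

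Ordered by log2 fold change, the members fell into steps. HMOX1 stood above BLVRB by 1.45 (95% interval 0.88 to 2.02), and BLVRB above BLVRA by 0.82, as given above. BLVRA, FTL and FTH1 could not be ordered: BLVRA exceeded FTL by 0.03 (-0.41 to 0.47) and FTH1 by 0.31 (-0.11 to 0.74). FTH1 and IREB2 were apart by 2.77 (2.33 to 3.22). With equal implied totals of the listed genes in both groups, every log2 value drops by 0.39, and the members then ran from 3.31 for HMOX1 to 0.73 for FTH1, with IREB2 at -2.04.

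In the authors' deposited table, direction went with transcript length, and the members have lengths on both sides. The 5 higher genes have mature transcripts of 878 nt (FTL), 938 nt (BLVRB), 1161 nt (BLVRA), 1229 nt (FTH1) and 1822 nt (HMOX1), while that of IREB2 has 6354 nt. Lengths are those of the GENCODE 29 transcript with the longest coding sequence, and of the longest such transcript where several tie. Which transcript the cells used is not known, so a length can be that of a longer form than the main one. Listed protein-coding genes were put into 10 classes of equal size by this length. In the class of FTL and BLVRB, 97.3% of genes were higher, with a median log2 fold change of 1.48. FTL stood at percentile 44.1 of that class and BLVRB at 85.3. In the class of BLVRA and FTH1, 94.5% were higher with a median of 1.12, and BLVRA stood at percentile 73.6 and FTH1 at 50.4. The rise of both ferritin messages was thus near the middle of listed genes of like length. HMOX1 stood at percentile 96.2 of its class, in which 91.2% were higher and the median was 1.02. In the class of IREB2, from 6064 to 7954 nt, 6.22% of genes were higher with a median of -1.24, and IREB2 stood at percentile 23. The part of transcript length in these values was not tested.

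**Figure D3:**
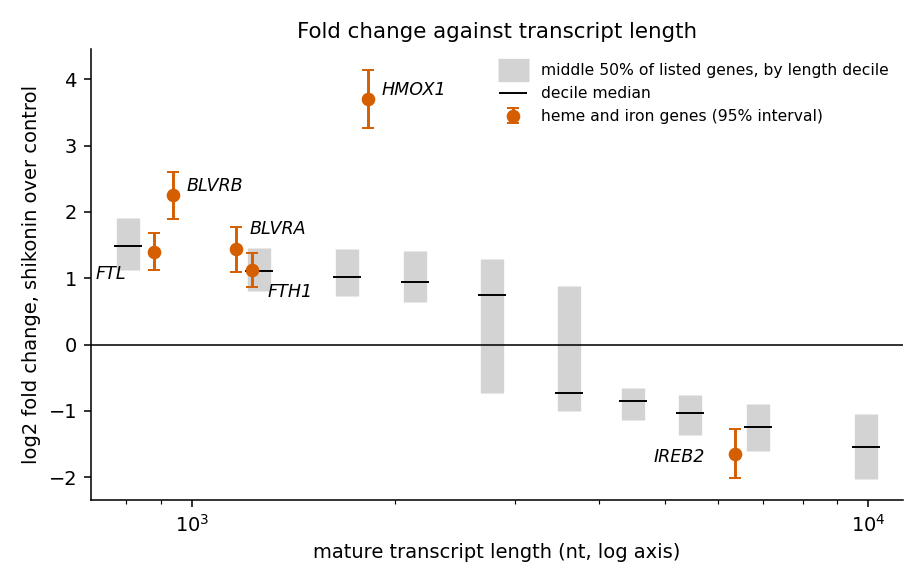
Log2 fold change (y axis) against mature transcript length (x axis, log scale): grey bars span the middle 50% of listed protein-coding genes in each of 10 length classes, black ticks are class medians, and points with 95% intervals are the 6 members. HMOX1 and BLVRB lie above the bars of their classes, with the lower end of the BLVRB interval just inside its bar, while FTL, FTH1 and BLVRA lie within theirs, and IREB2 lies just under its own, where the interval reaches into the bar.

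The RefSeq table, with 250 bases before and 50 after each start, matched 7 of the 9 members. HMOX1 and FTH1, both named above as NRF2-induced, were the pair not searched, so the counts below say nothing of them. Windows were searched on both strands. The antioxidant response core bound by NRF2, TGACNNNGC, stood in 13.3% of all windows and in 1 member, NCOA4, which was not listed. NCOA4 has more than 1 window, which gives it more chances of a match than the share per window. Its core lies after the start of 1 window, from base 24 to base 32. The same core with an added A at its end stood in 3.18% of all windows and in 0 of the 7 members. The AP-1 site TGANTCA stood in 7.71% of windows and in a different window of NCOA4, and the TATA box TATAAA in 11.5% and in that of TFRC. CCAAT and GC boxes were added after the windows had been seen: the CCAAT box stood in 34.6% of all windows and in 3 members (HMOX2, BLVRA and FTL), and the GC box GGGCGG in 45% and in all 7. Distant enhancers lie outside these windows. The 3 promoters of higher members that matched the table are shown for the boxes they carry, in capitals, up to the first base that GENCODE 29 places in the gene.
FTL: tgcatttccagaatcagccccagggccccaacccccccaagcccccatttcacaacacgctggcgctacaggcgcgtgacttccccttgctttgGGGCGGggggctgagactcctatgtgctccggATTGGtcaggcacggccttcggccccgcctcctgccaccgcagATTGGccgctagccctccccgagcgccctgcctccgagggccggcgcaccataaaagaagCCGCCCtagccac
BLVRB: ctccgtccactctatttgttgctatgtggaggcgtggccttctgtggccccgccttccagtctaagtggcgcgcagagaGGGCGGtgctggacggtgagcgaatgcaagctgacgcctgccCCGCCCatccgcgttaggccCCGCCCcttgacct
BLVRA: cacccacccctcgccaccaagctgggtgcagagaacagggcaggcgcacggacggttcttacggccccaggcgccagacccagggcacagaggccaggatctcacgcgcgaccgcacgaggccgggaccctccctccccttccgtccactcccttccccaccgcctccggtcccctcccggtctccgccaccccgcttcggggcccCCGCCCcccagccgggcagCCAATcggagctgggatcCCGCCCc
These are chr19:48965059-48965300 (plus strand), chr19:40465841-40465995 (minus strand) and chr7:43758430-43758679 (plus strand) of GRCh38.p14. ATTGG and CCGCCC are the same boxes read on the other strand.

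Of 10 genes of the BACH1 and NRF2 group, which regulate HMOX1 and ferritin transcription, 1 was listed higher, 4 lower and 5 not at all. With 5 of 10 listed, the group was at the 50.2% of all genes tested. BACH1, the repressor of HMOX1, was 1.91-fold lower (1.45 to 2.50; adjusted p = 1.13e-05, DESeq2) per the authors' deposited table. The authors' deposited table gave its relative BACH2 as 3.31-fold lower (1.78 to 6.15), with 61.7 normalized counts as its implied control mean. NFE2L1, a factor related to NRF2, was 1.95-fold lower (1.60 to 2.37) according to the authors' deposited table. The small MAF partners of these factors were split: MAFF was 1.74-fold higher (1.44 to 2.11) and MAFG 1.68-fold lower (1.37 to 2.05) per the authors' deposited table. NFE2L2, which encodes NRF2, KEAP1, CUL3, NFE2L3 and MAFK were not listed. The listed lower genes of this group had a median mature length of 5404 nt, and MAFF has 2490 nt. BACH1 has 5769 nt, in a length class where 10.8% of listed genes were higher. The median log2 fold change of that class was -1.03, against -0.93 for BACH1. Among NRF2 targets of other pathways, 5 of 14 were listed, all as higher. That is 35.7% listed, against 50.2% of all genes tested. Their median mature length was 1590 nt, within the length class of HMOX1, where 91.2% of listed genes were higher. TXN (thioredoxin) was 3.05-fold (2.51 to 3.70), AKR1C1 (an aldo-keto reductase) 3.91-fold (2.76 to 5.52), OSGIN1 2.81-fold (2.03 to 3.90) and PIR 2.67-fold (1.74 to 4.10) higher according to the authors' deposited table. AKR1C1 is given 6705 nt by the transcript rule above, which can pick a longer form than the main one. That length falls in the class of IREB2, where 6.22% of listed genes were higher. AKR1C1 shares reads with near-identical family members, so its value is uncertain. NQO1, GCLM, GCLC, TXNRD1, SRXN1, SLC7A11, ME1 and ABCC3 were among those not listed.

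Genes that control or use the iron regulatory protein moved in both directions. IRP2 is marked for degradation by FBXL5, which works in a ligase with SKP1, CUL1 and RBX1. In the authors' deposited table RBX1 was 2.76-fold higher (2.18 to 3.51), SKP1 was 1.84-fold higher (1.49 to 2.27) and CUL1 was 1.91-fold lower (1.56 to 2.33). Of this group of 5 genes, 60% were listed, against 50.2% of all genes tested. RBX1 has a mature length of 1188 nt, CUL1 has 3064 nt and SKP1 is given 9474 nt by the transcript rule above. The shortest and the longest of these were thus the higher ones, and only SKP1 was both longer and higher than CUL1. FBXL5 and ACO1, the gene of the other iron regulatory protein, were not listed. HERC2, which encodes a ligase known to act on NCOA4, was 5.16-fold lower (3.95 to 6.75; adjusted p = 2.03e-31, DESeq2) per the authors' deposited table, and its transcript has 15337 nt. Of the 14 genes for ferritin loading and ferritin autophagy, 2 were higher, 2 lower and 10 not listed. That is 28.6% listed, against 50.2% of all genes tested. The higher pair were the autophagosome genes GABARAP, 2.69-fold (2.19 to 3.31), and GABARAPL2, 1.88-fold (1.53 to 2.32), according to the authors' deposited table. RB1CC1, which starts autophagosome formation, was 1.66-fold lower (1.26 to 2.20) per the authors' deposited table. PCBP1 and PCBP2, which deliver iron to ferritin, were not listed.

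Of 9 heme synthesis genes, 5 were listed, all as higher, with a median log2 fold change of 1.08. That is 55.6% listed, near the 50.2% of all genes tested. Their median mature length was 1501 nt, and in the length class from 1495 to 1892 nt 91.2% of listed genes were higher with a median of 1.02. ALAS1, which encodes the first and rate-limiting enzyme outside red cells, was 1.66-fold higher (1.40 to 1.95) according to the authors' deposited table. UROD, an enzyme of the middle of the pathway, was 2.72-fold (2.18 to 3.38) and PPOX 2.27-fold (1.68 to 3.09) higher per the authors' deposited table. FECH, whose enzyme inserts the iron, was not listed. Of 11 genes for heme transport and binding, 6 were higher and 1, FLVCR1, was lower, so 63.6% were listed. The higher ones had a median mature length of 2530 nt, with HEBP2 given 10014 nt by the transcript rule above, and FLVCR1 has 5939 nt. FLVCR1, which encodes a transporter linked to heme export, was 2.12-fold lower (1.54 to 2.91) according to the authors' deposited table. The heme-binding genes HEBP2 and HEBP1 were 1.97-fold (1.60 to 2.41) and 1.81-fold (1.48 to 2.20) higher per the authors' deposited table. HRG was listed with a mean of 6.44 normalized counts and an implied control mean of 0.16, which gives no usable fold. Beyond bilirubin, ABCC2, which exports its conjugates, was 7.99-fold higher (4.45 to 14.4) and ABCC1 2.05-fold lower (1.58 to 2.65) according to the authors' deposited table. The level of ABCC2 was low, with a mean of 90.7 normalized counts and an implied control mean of 20.2. The authors' deposited table gave SLCO1B3 as 1.58-fold higher (1.19 to 2.11), and UGT1A1, the bilirubin conjugating enzyme, was not listed. Of the 5 genes grouped here under bilirubin conjugation and efflux, 60% were listed, and SLCO1B3 among them is not an efflux gene. ABCC2 has 5806 nt, in a length class where 10.8% of listed genes were higher, and ABCC1 has 6552 nt.

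Of 16 genes for iron uptake and reduction, 3 were higher, 3 lower and 10 not listed, so 37.5% were listed against 50.2% of all genes tested, a difference that was not tested. LCN2, a protein that binds iron-carrying siderophores, was 2.11-fold (1.72 to 2.59) and STEAP1, of the metalloreductase family, 2.65-fold (1.99 to 3.53) higher per the authors' deposited table. LRP1, a receptor that takes up heme bound to hemopexin, was 2.08-fold lower (1.62 to 2.66) and the metal importer SLC39A14 1.71-fold lower (1.39 to 2.09) according to the authors' deposited table. Of 8 genes grouped here around iron export and its control, 1 was listed (12.5%, against 50.2% of all genes tested). It was ZNF395, a zinc finger gene and not an exporter, at 1.71-fold lower (1.33 to 2.20) per the authors' deposited table. Its tie to iron export was not tested. SLC40A1, which encodes ferroportin, the cell's iron exporter, was not listed.

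Iron-sulfur clusters are another main use of cellular iron. Of 25 genes for mitochondrial iron and cluster building, 13 were higher, 3 lower and 9 not listed, so 64% were listed, against 50.2% of all genes tested, of which 25.5% were higher. BOLA3 and NFU1, which act late in cluster transfer, were 2.91-fold (2.31 to 3.67) and 2.27-fold (1.80 to 2.88) higher according to the authors' deposited table, and the chaperone gene HSCB was 2.45-fold higher (1.81 to 3.32). SLC25A37, which encodes the iron importer mitoferrin 1, was 1.63-fold lower (1.39 to 1.91) per the authors' deposited table. In the cytosol 5 of 10 were higher, 1 lower and 4 not listed (60% listed), with CIAO2B at 2.12-fold (1.66 to 2.71) and CIAO2A at 2.01-fold (1.58 to 2.56) higher according to the authors' deposited table. The higher mitochondrial genes had a median mature length of 1467 nt and the lower ones 4823 nt. The higher cytosolic genes had a median of 1228 nt, and the lower one has 2497 nt. Of 13 genes tied to ferroptosis, an iron-dependent cell death by lipid peroxides, 4 were higher, 1 lower and 8 not listed (38.5% listed). The higher ones had a median mature length of 1312 nt, and the lower one, ACSL4, has 5333 nt. GPX4, which reduces lipid peroxides, was 2.93-fold higher (2.35 to 3.65) and ACSL4, which supplies the lipids that oxidise, 2.21-fold lower (1.79 to 2.72) per the authors' deposited table. SAT1, a polyamine acetyltransferase, was 4.75-fold (3.86 to 5.84) and SLC3A2, a chain of the cystine transporter, 3.28-fold (2.62 to 4.10) higher according to the authors' deposited table.

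Over all 140 genes of these sub-lists, 48 were higher, 18 lower and 74 not listed, so 47.1% were listed, against 50.2% of all genes tested. The 140 include any genes that were not tested, which lowers the sub-list shares against the 50.2%. The listed genes of these sub-lists had a median log2 fold change of 0.84, against 0.60 over all listed genes of the authors' deposited table. As said above, the 0.60 lies close to the fold threshold and is not a typical fold. The 48 higher genes had a median mature length of 1562 nt and the 18 lower ones 5551 nt. With equal implied totals the split was 28 higher and 18 lower. The 20 genes that dropped out stayed positive, at log2 values of 0.19 to 0.58, and among those named above they were ALAS1, HEBP2, HEBP1, SLCO1B3, SKP1, GABARAPL2 and MAFF. At a fold of at least 2 the split was 28 and 7.

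**Figure D4:**
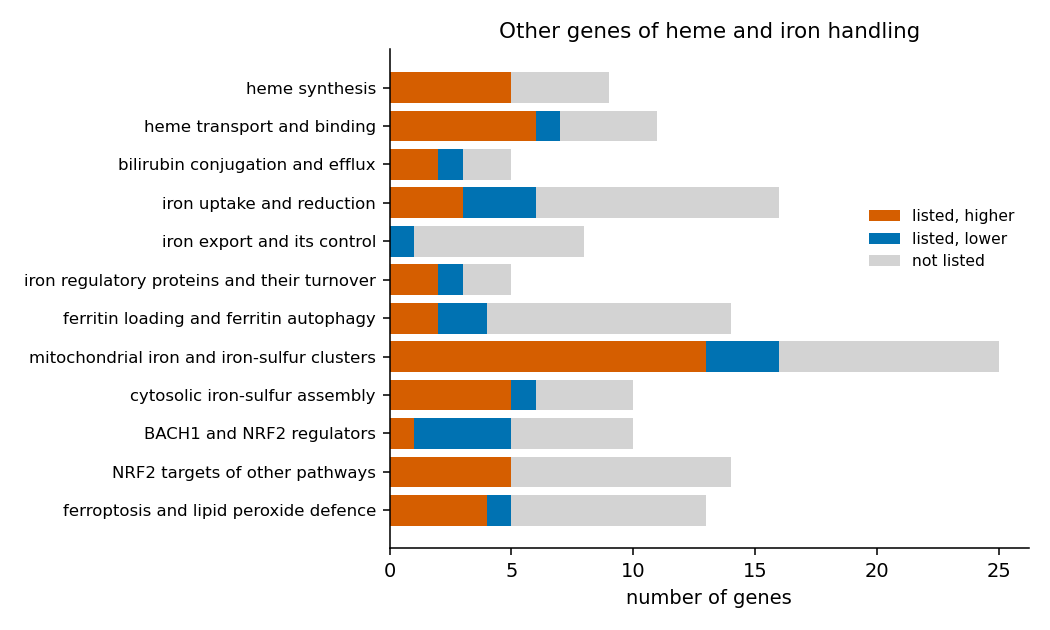
Number of genes (x axis) in each sub-list of heme and iron handling that the authors' deposited table listed as higher, listed as lower or did not list. Heme synthesis and the NRF2 targets of other pathways have 5 listed genes each, all higher, and the BACH1 and NRF2 regulators have 4 lower and 1 higher.

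Markers of the line and of other cells were looked up in the same way. VIM, a mesenchymal marker of this line, was listed with a mean of 64429 normalized counts and was 1.74-fold higher (1.47 to 2.07) per the authors' deposited table, ZEB1 was 1.69-fold lower (1.26 to 2.25), and CD44 was not listed. Of 8 red cell genes, globins and ALAS2 among them, 0 were listed, so whether any is present at a steady level is not known. Of 4 macrophage markers, 2 were listed as higher, CD68, which many cell types express, and LYZ, at a mean of 20.1 normalized counts, with implied sums of 2721 in control and 4331 in shikonin. PTPRC and CD163 were not listed. The part of such cells in the HMOX1 and ferritin values was not tested.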

How the data were processed

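RNA-seq libraries of 3 control and 3 shikonin samples were made from total RNA with a NEBNext Ultra kit, per the labels' protocols. Tools named in the submitters' processing notes are fastp, HISAT2 (2.0.5) and DESeq2, with hg38 as build. The sources used here name no read counter, annotation or strand setting. Per the file headers, the deposited mean is a signal of counts divided by size factors, averaged by the authors over all libraries. Per the file headers, the authors' own fit also gave each log2 fold change with a standard error, a Wald score, and a p-value with adjustment. The table lists only genes past an adjusted p of 0.05 and a fold of 1.5, which held for every row.

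From it, group means were solved, 95% normal intervals were taken from the standard error, and the number of tests (14255) was recovered from adjusted p, p and rank of the top 65 genes. The number of tests and the group means were checked on simulated data, and the intervals were not. The check of the group means only inverts the equation that defines them. Positions and lengths came from GENCODE 29 and matched 7142 of 7150 genes. Promoters came from RefSeq (GRCh38.p14). The tests on counts or per-sample values that had been planned could not be run, because the table holds 0 per-sample columns. The alternatives were an adjusted p below 0.001, a fold of at least 2, a mean of at least 100, equal implied totals, another reference transcript and other motifs. The text names all 9 members and, per sub-list, up to 4 listed genes of smallest adjusted p, with all listed genes of the regulator groups. Some genes counted in the sub-lists are not reported here by name. Unlisted genes were named for their roles, after the table had been seen. The members and lists were chosen with earlier results of these data known. Python 3.11.15 and pandas 2.3.3 were used.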

Additional observations from a re-analysis of the deposited data

How the results depend on the processing

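The 5 higher members and IREB2 kept their direction and stayed listed at an adjusted p below 0.001, at a fold of at least 2, at a mean of at least 100 normalized counts and with equal implied totals. The last assumes that listed genes take the same total in both groups. Their percentiles within length classes moved by less than their own intervals with the other reference transcript. Among the listed members only BLVRB has another length there, 873 nt against 938 nt. For the rest only the classes shifted, so this setting says little about the choice of transcript. The wider list changed more: its higher genes went from 48 to 28 at a fold of at least 2 and to 28 with equal implied totals, and its lower genes from 18 to 7 at a fold of at least 2. Fewer genes can pass those thresholds by construction, and lower genes that would enter with equal totals are not held. Members with the antioxidant response core went from 1 to 0 with the longer core. No paired analysis was possible because the table holds no values per sample, and leaving out replicates was not run for the same reason. Depth and replicate spread are unknown here, and genes not listed cannot be called unchanged.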
